A study of Mus musculus with 10 samples.

Results

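The axon guidance ligand and receptor genes were the 72 protein-coding genes of the mouse RefSeq annotation whose symbols begin with the names of the classical guidance families, out of 21774 protein-coding genes in all. They were 20 semaphorins, 8 ephrins, 6 netrins and 3 Slits, counted as 37 ligands, and 9 plexins, 2 neuropilins, 14 Eph receptors, 6 genes named Unc5 and 4 Robo receptors, counted as 35 receptors. Unc50 and Unc5cl matched by the start of their symbol only and are not netrin receptors. Neither had a peak. Members were matched by name and not by any measured value, but the set was proposed with earlier results of the series known.

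Axon guidance cues are secreted or membrane-bound proteins that attract or repel growing neurites. Netrins act through Dcc and Unc5 receptors, Slits through Robo receptors, secreted semaphorins through neuropilins and plexins, and ephrins through Eph receptors at cell contacts. In the adult brain the same proteins take part in the shaping of synapses and dendritic spines, and in the hypothalamus semaphorin and neuropilin signals are known for guiding the neurons that release gonadotropin-releasing hormone.

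ERα ChIP-seq, which recovers DNA bound by the estrogen receptor with an antibody, was performed on chromatin of the arcuate nucleus and of the AVPV. These are 2 regions of the hypothalamus, called nuclei here, with 4 libraries of each. The authors use the name AVPV for the rostral periventricular zone around the third ventricle. It takes in the anteroventral periventricular nucleus and the periventricular nucleus. All libraries came from female C57BL/6 mice that had been ovariectomised, given a 2 cm Silastic implant with 0.1 mg/mL of 17β-estradiol, and injected with 0.05 mg/kg of estradiol benzoate 28 h before collection. No vehicle-treated group was analysed here, so the comparison is between nuclei under the same treatment. The chromatin was pooled tissue chromatin, and the labels leave unsaid if libraries had pools of their own. The SDs and p-values therefore measure the spread between libraries, which may be technical. Neuronal and other cell types cannot be told apart in such tissue, and peak lists do not allow the dissection to be checked with marker genes.

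The lists held 4079, 3869, 3251 and 3468 peaks in the arcuate libraries and 2367, 2542, 3347 and 3059 in the AVPV libraries, so that arcuate lists were longer on average and the ranges overlapped. The share of all peaks within 20 kb of a start site ranged from 49.4% to 66.1%, with arcuate library 4 and AVPV library 3 the highest at 66.1% and 65.1%. Read depth is not contained in peak lists and was not analysed here, so a gene without a peak is not shown to be free of ERα. A gene was counted as bound in a library when one of its transcript starts was the nearest protein-coding start to the centre of at least 1 peak, at any distance, and separately when that distance was at most 20 kb.

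More guidance genes were bound in the arcuate than in the AVPV. The 4 arcuate libraries had 18, 18, 16 and 14 bound members, and the 4 AVPV libraries had 7, 10, 10 and 10. The lowest arcuate library was above the highest AVPV library, with means of 16.5 ± 1.91 and 9.25 ± 1.5 (SD, n = 4 libraries each) and a difference of 7.25. As a share of the 72 members this was 22.9% ± 2.66 in the arcuate and 12.8% ± 2.08 in the AVPV, whereas among all protein-coding genes 13.5% ± 1.04 and 10.9% ± 1.57 were bound. The ratio of the members' share to that of all genes was 1.7 ± 0.167 in the arcuate and 1.18 ± 0.168 in the AVPV, and its ranges did not overlap, at 1.46 to 1.84 and 1.03 to 1.4. The ranges of this ratio overlapped with lists of equal length, at 1 to 2.13 (1.67 ± 0.493) and 1.03 to 1.53 (1.3 ± 0.248), and with fold enrichment above 5, at 1.21 to 1.99 and 1.12 to 1.62.

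The difference in the number of bound members moved with the length of the peak lists. When every list was cut to its 2367 strongest peaks, arcuate libraries had 11.2 ± 3.1 bound members, between 7 and 14, and AVPV libraries had 8.75 ± 1.5, between 7 and 10, so that the ranges overlapped. The ranges also overlapped when peaks of fold enrichment above 5 or of −log10 q of at least 5 were kept, when peaks were assigned to gene bodies, and when non-coding genes took part in the assignment. No test was made of these counts, because the members had been proposed with earlier results of the series known.

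**Figure D1:**
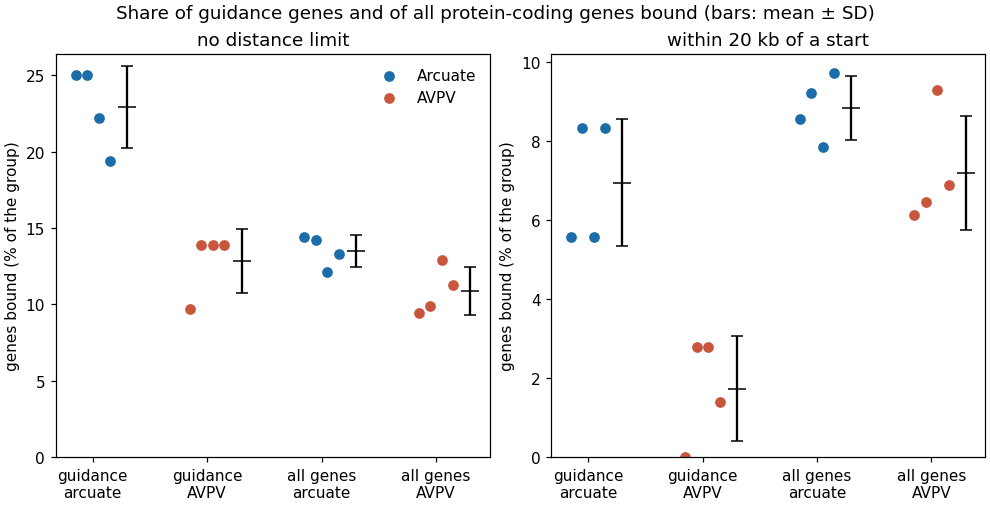
Share of the 72 guidance genes and of all 21774 protein-coding genes bound in each library, in percent (vertical axes), without a distance limit (left) and within 20 kb of a start (right), with points for libraries and bars for the mean ± SD over 4 libraries. Without a limit the arcuate guidance shares of 19.4% to 25% lie above all other points, and within 20 kb the AVPV guidance shares of 0% to 2.78% lie below all other points.

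Most of the members' peaks lay far from a start site. The median distance of the members' peaks was between 143 and 257 kb in arcuate libraries and between 272 and 441 kb in AVPV libraries, and the ranges did not overlap. The median over all peaks was between 0.626 and 20.8 kb and between 0.554 and 17.4 kb, and these ranges overlapped. The members' medians rested on 16 to 30 peaks per arcuate library and 10 to 19 per AVPV library. They were not computed with lists of equal length or stricter peak thresholds. Of the members' peaks, 22.7% ± 10.2 in the arcuate and 8.1% ± 6.84 in the AVPV fell within 20 kb, beside 57.3% ± 6.86 and 58.5% ± 5.39 of all peaks. With the 20 kb limit the arcuate libraries had 4, 6, 4 and 6 bound members and the AVPV libraries 0, 2, 2 and 1. The ranges did not overlap, with means of 5 ± 1.15 and 1.25 ± 0.957, but with lists of equal length they met at 2 members, with means of 3.25 ± 0.957 and 1.25 ± 0.957.

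The limit turned the position of the members against the other genes. Within 20 kb the members' share was 6.94% ± 1.6 in the arcuate and 1.74% ± 1.33 in the AVPV, beside 8.83% ± 0.804 and 7.19% ± 1.43 of all genes, so the ratio of shares was 0.78 ± 0.121 and 0.233 ± 0.181. The same turn was seen with a limit of 100 kb, at ratios of 0.914 and 0.523. Stretches of genome around the starts were longer at the median for guidance genes than over all genes. The median stretch nearest to the starts of a gene was 121 kb for members and 48.4 kb for all genes, and it was 550 kb for the bound members and 58.2 kb for the others. The members made up 0.331% of the genes and their stretches 1.16% of the genome assigned. Per megabase of these stretches the members had 0.752 ± 0.204 peaks in the arcuate and 0.467 ± 0.128 in the AVPV, with overlapping ranges, beside 1.34 ± 0.138 and 1.04 ± 0.166 over all genes. Across the 72 members the stretch and the total number of peaks had a Spearman rho of 0.508, which is a description over genes that share the same 8 libraries.

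Of the 72 members, 25 had a peak in at least 1 library, or 34.7%, beside 25.5% of all protein-coding genes. Of these 25, 10 were bound in arcuate libraries only, 1 (Sema6a) in an AVPV library only and 14 in both nuclei, or 40%, 4% and 56%. Of the 5562 genes bound in at least 1 library, 32.8% were bound in arcuate libraries only, 14% in AVPV libraries only and 53.2% in both. With lists of equal length, an alternative chosen after seeing the data, the split was 8, 2 and 11 of 21 bound members, beside 25.5%, 21.4% and 53% of the bound genes. More arcuate than AVPV libraries were bound for 16 members, fewer for 3 and as many for 6. The 16 were 64% of the bound members, beside 46.8% of all genes bound in at least 1 library. Within 20 kb 8 members were bound in at least 1 library, which is 11.1%, beside 17.8% of all genes. The other 47 members had no peak assigned.

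**Figure D2:**
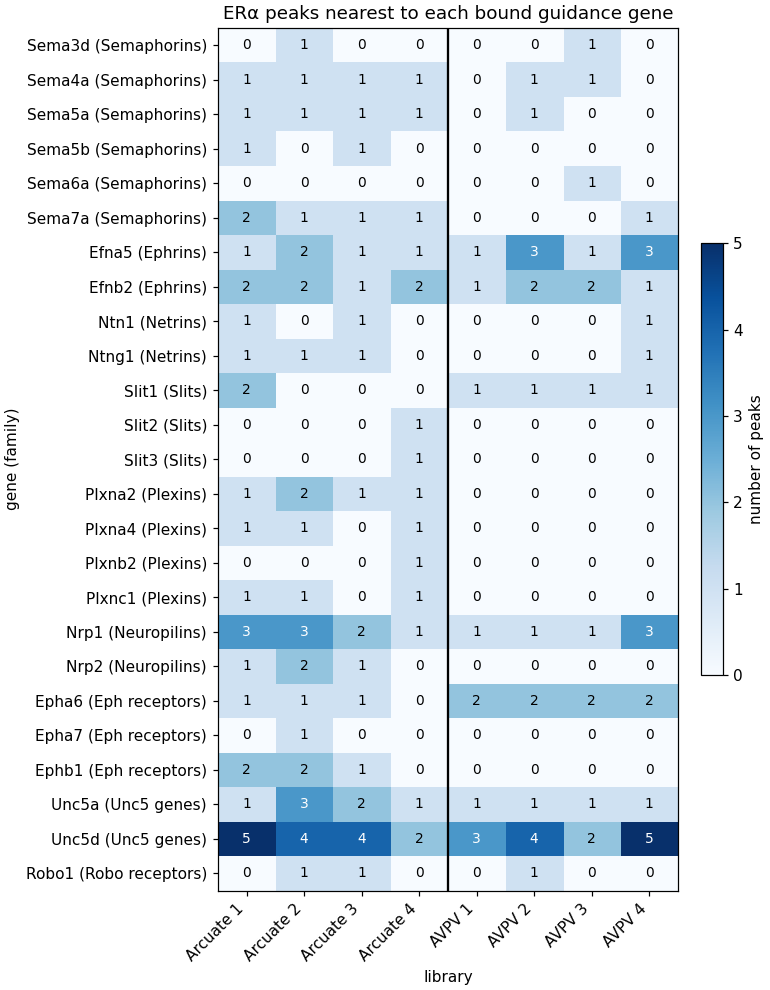
Number of ERα peaks (shade and digits) whose nearest protein-coding start belongs to each of the 25 bound guidance genes (rows, with the family) in each of the 8 libraries (columns, with a line between arcuate and AVPV). Unc5d has between 2 and 5 peaks in every library, the rows of the 4 plexins are at 0 in every AVPV library, and Epha6 has 2 peaks in every AVPV library and at most 1 in each arcuate library.

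Among the ligands, 6 of 20 semaphorins were bound in at least 1 library. Arcuate libraries had 4, 4, 4 and 3 bound semaphorins and AVPV libraries 0, 2, 3 and 1, so the groups met at 3. Of the 8 ephrins, the same 2 were bound in all 8 libraries. Among the 6 netrins, 2 were bound, in arcuate libraries 2, 1, 2 and 0 at a time and in AVPV library 4 only. All 3 Slits were bound somewhere, but Slit2 and Slit3 in 1 arcuate library each. Ligands as a whole had 9, 7, 8 and 7 bound genes in the arcuate and 3, 5, 6 and 6 in the AVPV. Of all protein-coding genes 12.1% to 14.4% were bound per arcuate library and 9.43% to 12.9% per AVPV library, with overlapping ranges.

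Among the receptors, 4 of 9 plexins, the signalling subunits of semaphorin receptors, were bound. Arcuate libraries had 3, 3, 1 and 4 bound plexins and none was bound in any AVPV library. This rests on 4 genes, of which Plxnb2 had 1 peak and Plxna4 and Plxnc1 were bound in 3 libraries each, in data where 32.8% of all bound genes were bound in arcuate libraries only. Both neuropilins, the ligand-binding co-receptors of plexins, were bound, 2, 2, 2 and 1 at a time in the arcuate and 1 at a time in the AVPV. Of 14 Eph receptors 3 were bound, in arcuate libraries 2, 3, 2 and 0 at a time and in each AVPV library 1. Of the 6 genes named Unc5, the same 2 were bound in all 8 libraries. Robo1 was the bound gene among the 4 Robo receptors, in arcuate libraries 2 and 3 and in AVPV library 2. Receptors as a whole had 9, 11, 8 and 7 bound genes in the arcuate and 4, 5, 4 and 4 in the AVPV. The all-gene shares of 12.1% to 14.4% and 9.43% to 12.9% per library overlapped. The split into ligands and receptors was not run with lists of equal length or stricter peak thresholds, where the ranges for all members overlapped. Within 20 kb no receptor was bound in the AVPV, and the arcuate libraries had 0, 2, 1 and 2, so the groups met at 0. Of all genes 8.83% ± 0.804 in the arcuate and 7.19% ± 1.43 in the AVPV were bound within 20 kb.

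**Figure D3:**
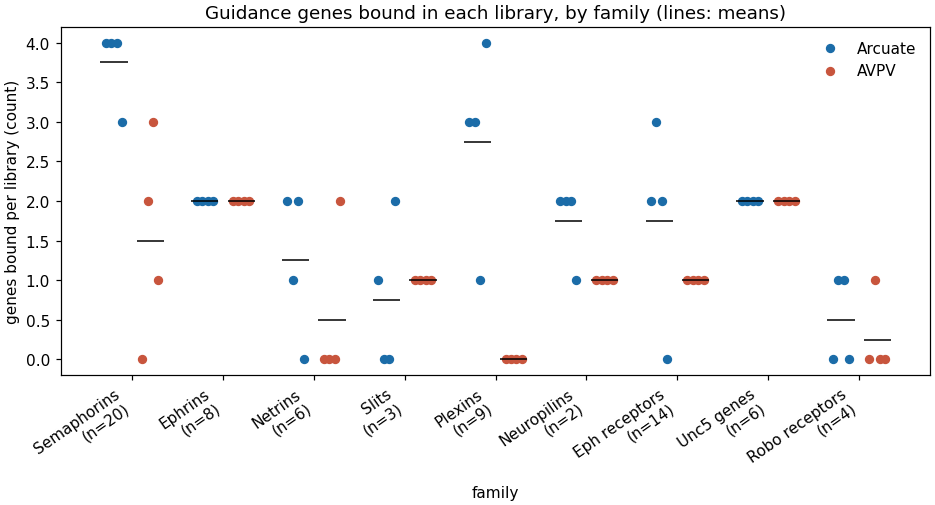
Number of genes bound per library (vertical axis, count) in each guidance family (horizontal axis, with the number of members), with a point for each arcuate and AVPV library and lines for the means. Plexins have 1 to 4 bound genes in arcuate libraries and 0 in AVPV libraries, while ephrins and Unc5 genes have 2 in all 8 libraries.

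Plxna2, a plexin that receives class 3 and class 6 semaphorin signals, was the member bound in every arcuate library and in no AVPV library. Over all 5562 genes with a peak in at least 1 library, 2.12% had this pattern and 0.521% had the opposite one, which no member showed. Two-sided Fisher's exact test of 4 libraries against 4 gave p = 0.0286 for Plxna2, the smallest this design allows, and an adjusted p of 1 over all these genes (Benjamini-Hochberg). At an unadjusted p under 0.05 there were 147 genes, and after adjustment 0. With the replicate block, a sign-flip test over the 4 same-numbered pairs, the p of Plxna2 was 0.125, the smallest it can give. Within 20 kb 1.4% and 0.491% of the 3868 genes bound there separated the nuclei in the same ways, and no member was among them.

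The 4 arcuate libraries did not share a Plxna2 site. Arcuate libraries 1, 3 and 4 had a peak in an intergenic region 366 kb upstream of the start (chr1:194254040-194254395), at fold enrichments of 5.39, 6.51 and 5.05 over the local background. Arcuate library 2 had peaks 370 kb upstream, at a fold enrichment of 3.68, and in the promoter, 0.022 kb downstream of the start, at 4.84. The separation of Plxna2 was lost with a fold enrichment above 5, with a −log10 q of at least 5 and with lists of equal length.

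The other bound plexins had a single region each. Plxna4, which transmits class 3 semaphorin signals with neuropilin 1, had an intergenic region 136 kb upstream with peaks in arcuate libraries 1, 2 and 4 at fold enrichments of 6.65, 3.63 and 4.85. Plxnc1, the receptor of Sema7a, had an intergenic region 150 kb upstream with peaks in the same libraries at 10, 6.19 and 6.49. Plxnb2, a receptor of class 4 semaphorins, had 1 peak in arcuate library 4, in an intron 0.263 kb downstream of a start. None of these regions had a peak in the AVPV. Fisher's exact test gave p = 0.143 for Plxna4 and Plxnc1, with an adjusted p of 1.

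Efna5, Efnb2, Nrp1, Unc5a and Unc5d were bound in all 8 libraries, or 6.94% of the members beside 4.76% of all protein-coding genes. Efna5 is a membrane-anchored and Efnb2 a transmembrane ephrin, Nrp1 binds Sema3a, and Unc5a and Unc5d belong to the netrin receptors that mediate repulsion. A gene bound in all libraries need not have a region with a peak in all of them. Of the 50 regions assigned to members, where a region is the union of peaks that share at least 1 bp, 3 (6%) had a peak in all 8 libraries, beside 13.5% of all 8072 regions. These lay by Efnb2, Nrp1 and Unc5a.

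The following 200 bases of the mm10 reference around the mean summit of the strongest region with an estrogen response element are shown for the 5 genes bound in all libraries, on the plus strand. The element was searched on both strands as AGGTCANNNTGACCT, the inverted repeat that the receptor binds as a dimer, allowing 2 mismatches over the 12 fixed letters, and within 100 bp of the summit. Capitals mark the match.
Efnb2, chr8:8026027-8026226: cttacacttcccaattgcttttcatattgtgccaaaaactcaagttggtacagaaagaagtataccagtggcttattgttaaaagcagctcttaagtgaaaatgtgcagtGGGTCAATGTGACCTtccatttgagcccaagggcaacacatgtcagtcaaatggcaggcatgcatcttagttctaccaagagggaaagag
Nrp1, chr8:127939836-127940035: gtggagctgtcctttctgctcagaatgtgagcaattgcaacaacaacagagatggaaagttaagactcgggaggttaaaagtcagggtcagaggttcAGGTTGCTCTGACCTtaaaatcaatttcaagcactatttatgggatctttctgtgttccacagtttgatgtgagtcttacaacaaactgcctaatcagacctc
Unc5a, chr13:54976892-54977091: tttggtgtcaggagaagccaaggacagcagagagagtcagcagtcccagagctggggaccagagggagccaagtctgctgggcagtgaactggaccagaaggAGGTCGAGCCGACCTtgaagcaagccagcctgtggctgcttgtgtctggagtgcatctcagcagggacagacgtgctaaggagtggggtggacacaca
Unc5d, chr8:29754801-29755000: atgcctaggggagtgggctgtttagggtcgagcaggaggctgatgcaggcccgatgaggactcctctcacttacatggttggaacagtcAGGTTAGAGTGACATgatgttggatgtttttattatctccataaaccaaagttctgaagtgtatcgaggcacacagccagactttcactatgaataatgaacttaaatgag
Efna5, chr17:61969274-61969473: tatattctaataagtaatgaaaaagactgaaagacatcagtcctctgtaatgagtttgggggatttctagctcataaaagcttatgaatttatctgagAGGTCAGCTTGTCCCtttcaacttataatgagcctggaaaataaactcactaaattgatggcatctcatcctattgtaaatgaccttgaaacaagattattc
The Efnb2 match had 1 mismatch and the others 2 each. Their centres lay between 4 and 17 bp from the mean summit. A match of letters describes the region and was not tested as a binding site.

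The Efnb2 region, in intergenic sequence 621 kb downstream of the start, had fold enrichments of 9.78, 7.17, 6.72 and 10.2 in the arcuate and 5.49, 10.7, 12.5 and 11.1 in the AVPV. AVPV library 1 was the lowest of all 8 and the other AVPV libraries were the highest. Within each library's own list the peak stood at the 35th percentile of fold enrichment in AVPV library 1 and between the 56.4th and 87.8th in the others. Efnb2 also had a promoter region, 0.248 kb upstream of the start, with peaks in arcuate libraries 1, 2 and 4 at 5.39, 7.62 and 6.13 and in AVPV library 3 at 9.09.

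The Nrp1 region lay in intergenic sequence 419 kb upstream. Its fold enrichments were 11.3, 8.61, 8.47 and 8.3 in the arcuate and 9.68, 13, 11.9 and 14.2 in the AVPV, so 3 AVPV libraries were above every arcuate library. Nearby regions 417 and 412 kb upstream had peaks in 3 and 2 arcuate libraries and in AVPV library 4. The Unc5a region lay in an intron of the gene, 27.6 kb downstream of the nearest start. It had fold enrichments of 8.85, 6.69, 7.09 and 6.29 in the arcuate and 6.42, 8.37, 7.47 and 9.15 in the AVPV, and the groups overlapped.

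Peak strength was compared between the nuclei at the 1089 regions with a peak in all 8 libraries, with limma on log2 fold enrichment centred per library. Over these regions 10.2% were higher in the arcuate and 9.18% higher in the AVPV at an adjusted p under 0.05, and none of the members' 3 regions was called. The arcuate minus AVPV difference was −0.42 at Nrp1 (SE 0.185, 95% interval −0.80 to −0.04, adjusted p = 0.116 by limma), which did not pass the threshold. It was −0.20 at Efnb2 (SE 0.224, interval −0.66 to 0.26, adjusted p = 0.568 by limma) and −0.13 at Unc5a (SE 0.185, interval −0.51 to 0.26, adjusted p = 0.661 by limma), and these intervals include 0.

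Unc5d had the most peaks of any member, 5, 4, 4 and 2 in the arcuate libraries and 3, 4, 2 and 5 in the AVPV libraries, in 8 regions over a stretch of 1821 kb. The region shown, 535 kb upstream, had fold enrichments of 6.67, 5.11 and 5.54 in arcuate libraries 1 to 3 and no listed peak in library 4, and of 7.84, 9.54, 7.82 and 10.8 in the AVPV. Every AVPV value was above every arcuate value. It lacked a peak in arcuate library 4 and so was not in the limma fit. Without that library the difference was −0.64 (SE 0.199, adjusted p = 0.0238 by limma). Among the 8 fits that left out a library, only this one included the region. In it 119 of 1197 regions were called higher in the arcuate and 108 higher in the AVPV, and 1 of 5 member regions was called. A region 796 kb upstream went the other way in presence, with peaks in 4 arcuate libraries at 7.18, 6.3, 5.21 and 6.13 and in AVPV library 4 at 5.96. Another, 570 kb upstream, had peaks in AVPV libraries 1, 2 and 4 at 4.45, 5.2 and 4.82 and in no arcuate library.

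Efna5 was bound in every library by different regions. A region 167 kb upstream, inside an exon of Fbxl17, had peaks in arcuate libraries 2, 3 and 4 at fold enrichments of 3.87, 5.17 and 4.59 and in AVPV libraries 2 and 4 at 7.15 and 8.9. Intergenic regions 746 and 1662 kb downstream had peaks in 3 AVPV libraries each and in no arcuate library. An intronic region 21.9 kb downstream had peaks in arcuate libraries 1 and 2 only.

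The member regions with an exact match to the element, with 0 mismatches, were 1 of Unc5d and 1 of Sema3d, a secreted semaphorin. They are printed below in the same way and were chosen after their values were seen.
Unc5d, chr8:29789902-29790101: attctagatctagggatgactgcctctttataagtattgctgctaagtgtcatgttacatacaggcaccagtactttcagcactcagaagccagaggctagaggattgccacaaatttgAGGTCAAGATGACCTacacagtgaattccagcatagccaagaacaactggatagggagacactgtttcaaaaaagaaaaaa
Sema3d, chr5:12655382-12655581: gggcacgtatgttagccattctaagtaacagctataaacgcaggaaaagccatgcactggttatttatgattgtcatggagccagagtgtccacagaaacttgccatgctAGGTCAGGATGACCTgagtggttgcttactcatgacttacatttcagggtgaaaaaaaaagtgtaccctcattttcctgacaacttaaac
The Unc5d region is the one 570 kb upstream, bound in 3 AVPV libraries. The Sema3d region, 272 kb downstream of the start and intergenic, had peaks in arcuate library 2 at 6.99 and in AVPV library 3 at 4.69.

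Members whose number of bound libraries differed by 3 were Ephb1, Nrp2, Plxna4, Plxnc1, Sema5a and Sema7a towards the arcuate and Slit1 towards the AVPV. Of the 5562 genes bound in at least 1 library, 2605 were bound in more arcuate and 1374 in more AVPV libraries, at any size of difference. The share of all genes that differed by 3 was not counted, so this list has no like background. It names genes and is not a result about the members as a set. Fisher's exact test gave p = 0.143 for each, with an adjusted p of 1. Ephb1, a receptor of B-class ephrins, had peaks in 3 regions, all in introns of the gene and all in arcuate libraries 1 to 3. The strongest, 300 kb downstream of the start, had fold enrichments of 8.98, 8.07 and 5.54 there. Nrp2, the co-receptor of Sema3f, had an intronic region 26.4 kb downstream at 6.41, 6.46 and 5.86 in the same libraries. Arcuate library 4 held neither gene.

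Sema7a, a membrane-anchored semaphorin, had the strongest promoter peak among the members. Its region 0.597 kb upstream of the start had fold enrichments of 10, 9.15, 9.12 and 7.94 in the arcuate libraries, at the 75.4th to 82.4th percentile of their lists, and of 5.39 in AVPV library 4. The other AVPV libraries had no listed peak. Sema5a, a transmembrane semaphorin with thrombospondin repeats, had a weak intergenic region 19.5 kb upstream at 4.53, 3.8, 4.39 and 4.59 in the arcuate and 4.62 in AVPV library 2, just inside the 20 kb limit. The median percentile of these arcuate peaks was 13.6. Sema4a, a class 4 semaphorin, had an intronic region 0.679 kb downstream of one of its 9 annotated starts, at 6.72, 5.75, 6.16 and 6.32 in the arcuate and 6.17 and 6.64 in AVPV libraries 2 and 3. These 3 semaphorins and Efnb2 were the members bound within 20 kb in at least 4 libraries.

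Slit1, a secreted repellent that binds Robo receptors, had an intronic region 79.6 kb downstream of the nearest start with peaks in every AVPV library at 7.19, 6.89, 6.53 and 6.92. In the arcuate this region had a peak in library 1 at 5.97. The AVPV values lay close together and above the arcuate value. A second intronic region, 64.9 kb downstream, had a peak in arcuate library 1 only, at 4.48, so that this library had 2 Slit1 peaks. Both regions held an element with 2 mismatches.

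Epha6, an Eph receptor of A-class ephrins, falls outside the rule for named genes and was chosen with its values in view. It had 2 peaks in each AVPV library and 1, 1, 1 and 0 in the arcuate libraries. Over all bound genes 2.7% had more peaks in every arcuate than in any AVPV library, among members Plxna2, and 0.809% had the opposite, among members Epha6. An intronic region 463 kb downstream of the start was bound in arcuate libraries 1 to 3 and in all AVPV libraries. A second intronic region, 213 kb downstream, had peaks in the AVPV libraries only, at 6.54, 5.2, 6.57 and 9.65. Of all 8072 regions 2.13% had a peak in every arcuate and no AVPV library, none of them a member region, and 0.818% had the opposite pattern, among member regions this one. Its sequence, which holds an element with 2 mismatches, is shown as the region that separated the nuclei.
Epha6, chr16:60392194-60392393: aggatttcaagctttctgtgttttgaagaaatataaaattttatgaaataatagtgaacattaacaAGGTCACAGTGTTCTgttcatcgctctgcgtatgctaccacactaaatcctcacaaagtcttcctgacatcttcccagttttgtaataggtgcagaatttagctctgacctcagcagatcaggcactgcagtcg

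**Figure D4:**
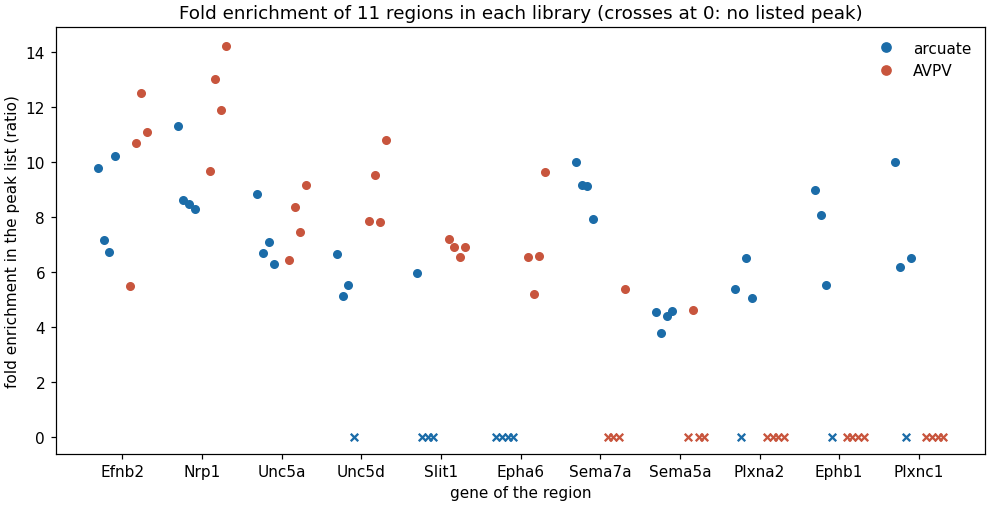
Fold enrichment (vertical axis, ratio over the local background as listed) of 11 regions of guidance genes in each arcuate and AVPV library, with crosses at 0 where a library lists no peak. The regions were picked by hand, with Epha6 from outside the rule for named genes and without Efna5, Nrp2 and Plxna4 from inside it. Efnb2, Nrp1 and Unc5a have values in all 8 libraries, the Epha6 region has 4 AVPV values between 5.2 and 9.65, and the Sema7a promoter has 4 arcuate values between 7.94 and 10 and 1 AVPV value of 5.39.

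The remaining bound members had peaks in few libraries. Ntng1, a membrane-anchored netrin, was bound in arcuate libraries 1 to 3 and AVPV library 4, and Ntn1, the classical netrin, in arcuate libraries 1 and 3 and AVPV library 4, all in introns of the genes. Sema5b was bound in 2 arcuate libraries and Sema6a, Epha7, Slit2, Slit3 and Plxnb2 in 1 library each. No peak was assigned to Sema3a, Sema3b, Sema3c, Sema3e, Sema3f, Sema3g, Sema4b, Sema4c, Sema4d, Sema4f, Sema4g, Sema6b, Sema6c or Sema6d. The same held for Efna1, Efna2, Efna3, Efna4, Efnb1 and Efnb3, and for Ntn3, Ntn4, Ntn5 and Ntng2. Among receptors it held for Plxna1, Plxna3, Plxnb1, Plxnb3, Plxnd1, Epha1, Epha2, Epha3, Epha4, Epha5, Epha8, Epha10, Ephb2, Ephb3, Ephb4, Ephb6, Robo2, Robo3, Robo4, Unc5b, Unc5c, Unc50 and Unc5cl.

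Of these, Ephb2 and Unc5c had peaks inside the gene that were nearer to the start of a neighbour. An Unc5c region (chr3:141819234-141819642), assigned to Bmpr1b, had peaks in arcuate libraries 1 to 3 at 5.39, 3.94 and 5.54 and in AVPV libraries 2 to 4 at 6.36, 5.63 and 8.66. The Ephb2 regions, assigned to Lactbl1, had peaks in arcuate library 2 only. Some genes with long stretches, such as Robo2 with 1979 kb and Sema6d with 1425 kb, had no peak.

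Of the 50 member regions, 24 (48%) had peaks in arcuate libraries only, 6 (12%) in AVPV libraries only and 20 (40%) in both. Over all 8072 regions the shares were 41.7%, 18.5% and 39.8%. A peak in a single library made up 17 of them (34%), beside 41.5% of all regions. By annotation 24 were intergenic, 22 intronic (21 of them in the member itself), 3 in promoters and 1 in an exon. The regions within 20 kb of a start were 8 (16%), beside 54.2% of all regions, and the median distance was 225 kb beside 14 kb.

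A response element was found in 26 of the 50 regions (52%), beside 28.6% of all regions and 1.57% of windows moved by 5 kb. Elements are more frequent far from starts in these lists, so the regions beyond 20 kb are a closer comparison. There 24 of 42 member regions (57.1%) and 43.7% of all regions held one. Distance was not matched within this group, and 33 of the 50 member regions lay beyond 100 kb. Within 20 kb 2 of 8 member regions and 15.8% of all regions held an element. The promoter regions of Sema7a, Efnb2 and Plxna2 held no such match, and the Sema4a and Unc5a regions near starts did.

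**Figure D5:**
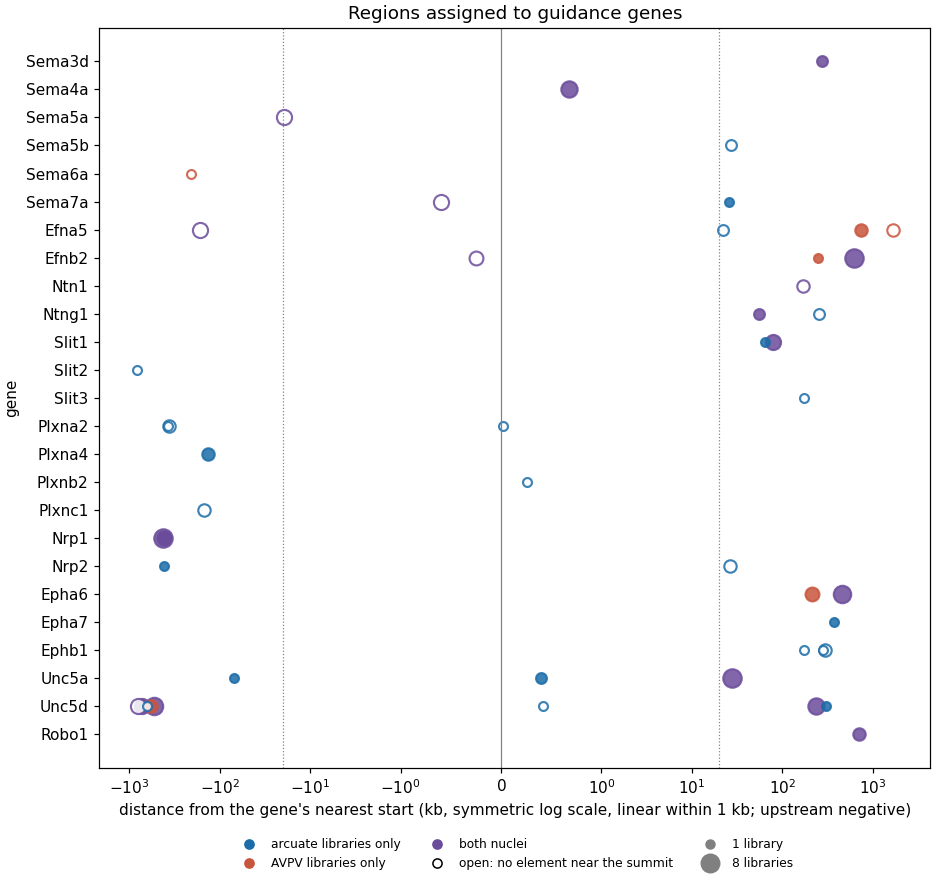
The 50 regions of the 25 bound guidance genes (rows) by distance from the gene's nearest start (horizontal axis, kb, symmetric log scale, upstream negative, dotted lines at 20 kb), with colour for the nuclei with peaks, size for the number of libraries and filled points where an element lies within 100 bp of the summit. The 42 regions beyond 20 kb hold most of the filled points, and 8 regions lie within the dotted lines.

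Other genes of the pathway, 66 co-receptors, adhesion partners and signal transducers, were counted in the same way. In the arcuate 17 to 19 of them were bound per library (18 ± 0.816) and in the AVPV 11 to 17 (14 ± 2.45), so the ranges met at 17. Of the 66, 30 (45.5%) were bound in at least 1 library, beside 25.5% of all protein-coding genes. Of these 30, 15 were bound in more arcuate and 7 in more AVPV libraries. Over the 5562 bound genes 2605 (46.8%) and 1374 went these ways. None of the 66 was bound in all libraries of one nucleus and none of the other. The netrin receptor Neo1, the adhesion molecules Dscam, Dscaml1 and Chl1, and the actin regulators Mical2 and Enah were bound in all 8. They were 6 of the 66, beside 4.76% of all protein-coding genes. The netrin receptor Dcc, with a stretch of 1502 kb, had no peak in any library, nor had L1cam, Nrcam or Mical1. The median stretch of all 66 genes was 156 kb, beside 48.4 kb for all genes. The 66 were not counted within 20 kb or with lists of equal length. For the 72 members the share bound in at least 1 library was below that of all genes within 20 kb, at 11.1% beside 17.8%.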

How the data were processed

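ERα ChIP-seq libraries were sequenced as 75-nt reads, aligned to mm10 with Bowtie2 2.5.0 and called with MACS2 2.2.7.1 by the authors. Each deposited list holds the peaks of 1 library, with a score, a fold enrichment (a ratio over local background) and the −log10 p-value and q-value of each peak. The authors' score was not used. The 2 input samples were not analysed here.

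Peak centres were assigned to the nearest of 56206 transcript starts of RefSeq protein-coding genes (GRCm38.p6), and a promoter ran from 1 kb upstream to 100 bp downstream. Libraries were grouped by the labels. The members, lists and tests were chosen with earlier results of these data known. Genes named were those separating the nuclei, bound in all 8 libraries, differing by 3 libraries, bound within 20 kb in at least 4 libraries or past the limma threshold. Fisher's exact test and limma 3.58.1 (R 4.3.3) were used with Benjamini-Hochberg adjustment, in Python 3.11.15 and R. Scripts were tested on simulated data. Percentiles are of fold enrichment within a list. Same-numbered libraries were checked for pairing, and their deviations over the shared regions correlated at 0.1, −0.01, 0.05 and −0.31, so numbers were not treated as pairs. Alternatives to thresholds, list lengths, distance limits, starts, scales and libraries are given at the end.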

Additional observations from a re-analysis of the deposited data

Results flagged for a closer look

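In 3 of 34 groups of 4 library values the lowest or highest library lay far from the others, by Dixon's test at 95%, which flags about 1 in 20 groups by chance. In 2 of the 3 the other libraries tied, so that a gap of any size was marked and the rate of 1 in 20 does not hold for them. AVPV library 1 had 7 bound members and the other AVPV libraries 10 each. AVPV library 2 had 5 bound receptors, including Robo1, and the others 4 each. At the Efnb2 region bound in all libraries, AVPV library 1 stood at the 35th percentile of its list and the other AVPV libraries between the 82.7th and 87.8th. AVPV library 1 also had the shortest list, with 2367 peaks. The part of list length in these values was not tested.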

How the results depend on the processing

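The difference of 7.25 bound members kept its direction in every alternative run. It was 4.25 with fold enrichment above 5, 4.75 with −log10 q of at least 5, 2.5 with lists of equal length, 3.75 within 20 kb, 4.25 within 100 kb, 2.5 with non-coding starts, 4 with gene bodies, and 6.5 to 8.08 without 1 library. The ratio of shares turned below 1 within 20 kb (0.78 arcuate, 0.233 AVPV), within 100 kb (0.914, 0.523) and with non-coding starts (0.82, 0.558). In the AVPV it was 1.41 with fold enrichment above 5. Ratios of densities moved to 0.406 and 0.248 with non-coding starts, and in the AVPV to 0.262 within 100 kb and 0.176 within 20 kb. The receptor difference was 1.25 within 20 kb. Within 20 kb the difference of 3.75 was 2.5 with fold enrichment above 5 and 2 with lists of equal length, both added after seeing the data. The cause of these shifts was not tested.

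The count of members separated towards the arcuate, 1, was 0 with fold enrichment above 5, −log10 q of at least 5, equal lists, gene bodies, non-coding starts and both distance limits, and 1 to 3 without 1 library. It was 3 without arcuate library 3 (adding Plxna4 and Plxnc1) or arcuate library 4 (adding Ephb1 and Nrp2), and 2 without AVPV library 2 (adding Sema5a) or 4 (adding Sema7a). Towards the AVPV it was 0 to 1, with Slit1 separated without arcuate library 1. Member regions called by limma were 0 to 1 without 1 library. The Efnb2 difference turned positive on the percentile scale (0.334 points) and on log2 of −log10 p (0.0067). None of the 3 regions lay within 20 kb, so that alternative gave no value. The replicate block, whose numbers mark no known shared origin, gave 0 called member regions and a p of 0.125 for Plxna2. Peak lists give no read depth, so weak sites cannot be told from absent ones.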
